A study of Homo sapiens with 8 samples.

Results

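The microRNA genes of NCCIT cells are described here, a set of 173 genes among the 18417 that the array could assign to a single gene symbol. They were chosen by name alone: the symbol had to begin with MIR or MIRLET followed by a digit and could not end in HG, the suffix of long host transcripts, of which 16 were left out. Of the 173, 50 (28.9%) had a signal above background, against 12749 (69.2%) of all genes, and 123 did not. Background is the 95th percentile of the 8-array means of 341 olfactory receptor genes, whose receptors are made in the nose and are not a feature of these cells, and it lay at a log2 intensity of 5.21.

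NCCIT is an established human embryonal carcinoma line, derived from a germ cell tumour. The cells received a mixture of small interfering RNAs against TET1 (siTET1), TET2 (siTET2) or TET3 (siTET3), or a non-targeting control (siNTC), with 2 arrays for each of the 4 groups. The TET enzymes oxidise 5-methylcytosine in DNA, and the comparison asks how transcripts differ once one of them is depleted. Transfection was transient, so each group is a mixed population that still made some of its target, and all 3 depletions were compared with the same 2 siNTC arrays. Nothing in the labels says that the 2 arrays of a group came from separate cultures, so a p-value here speaks only of differences among these arrays, whose spread may be technical. In cells measured in bulk, fewer cells of a type and less RNA per cell cannot be told apart.

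A microRNA is cut from a long primary transcript in 2 steps. DROSHA with DGCR8 releases a short hairpin in the nucleus, and DICER1 cuts the hairpin in the cytoplasm into a mature strand that an Argonaute protein carries to target messenger RNAs. Bases 2 to 8 of the mature strand, the seed, decide most of the targets, so genes that share a seed form a family. Pluripotent cells are known for high levels of the miR-302 family, and for LIN28 proteins that keep let-7 hairpins from being processed. The array was made from total RNA with a method meant for long transcripts, so a value is the signal at a microRNA gene, which can come from a primary transcript, a hairpin or a host transcript. Mature microRNAs were not measured.

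The mature strands of the genes that the results turn on are shown so that families can be recognised by eye, with the seed in capitals. They were read from RefSeq (GRCh38.p14), which held a mature strand for 164 of the 173 genes and a hairpin for 155. The first set shares the seed of miR-15 and miR-16, the second that of let-7, the third that of miR-302, the fourth that of miR-25, and the fifth that of miR-29. The strands of MIR221, MIR376C, MIR193A, MIR19B2 and MIR200B follow, each with another seed.
hsa-miR-15a-5p: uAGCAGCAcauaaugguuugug
hsa-miR-15b-5p: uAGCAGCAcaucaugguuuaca
hsa-miR-16-5p: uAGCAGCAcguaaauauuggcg
hsa-let-7f-5p: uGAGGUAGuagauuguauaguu
hsa-let-7d-5p: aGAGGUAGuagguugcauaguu
hsa-let-7i-5p: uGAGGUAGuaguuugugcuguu
hsa-miR-302a-3p: uAAGUGCUuccauguuuugguga
hsa-miR-302b-3p: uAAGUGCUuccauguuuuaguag
hsa-miR-25-3p: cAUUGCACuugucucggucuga
hsa-miR-32-5p: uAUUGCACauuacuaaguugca
hsa-miR-92a-3p: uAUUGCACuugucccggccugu
hsa-miR-29a-3p: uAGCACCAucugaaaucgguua
hsa-miR-29b-3p: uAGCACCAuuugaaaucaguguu
hsa-miR-221-3p: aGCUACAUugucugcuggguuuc
hsa-miR-376c-3p: aACAUAGAggaaauuccacgu
hsa-miR-193a-3p: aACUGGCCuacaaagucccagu
hsa-miR-19b-3p: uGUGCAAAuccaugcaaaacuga
hsa-miR-200b-3p: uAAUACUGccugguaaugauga

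Each siRNA lowered its own target: the TET1 transcript changed by -0.68 ± 0.048 in siTET1 (log2 fold change ± standard error of the fit), TET2 by -0.88 ± 0.095 in siTET2 and TET3 by -1.08 ± 0.15 in siTET3. The other TET transcripts were not constant, since TET1 also fell by 0.30 in siTET2 and rose by 0.42 in siTET3, and TET2 also fell by 0.47 in siTET3. Of the 8 embryonal carcinoma markers chosen, 5 were measured (SOX2, LIN28A, LIN28B, SALL4 and DNMT3B), all with a mean log2 intensity above 10. SALL4 fell by 0.17, 0.21 and 0.24 in siTET1, siTET2 and siTET3, SOX2 by 0.13 in siTET2 and 0.19 in siTET3, DNMT3B by 0.11 in siTET2, and LIN28A rose in siTET1. Of all genes above background, 23.5%, 28% and 29.7% were lower and 21.9%, 20% and 18.1% higher in siTET1, siTET2 and siTET3. Of 14 markers of other cell types, 13 were measured and 4 lay above background (GATA4, GATA6, MIXL1 and COL1A1), none above 6.30 on average, while the others, PAX6, SOX1, KRT7 and PTPRC among them, did not. None of the 13 passed in siTET1, and 3 passed in siTET2 (GATA6 and CGA higher, AFP lower) and 3 in siTET3 (GATA6 and FOXA2 higher, AFP lower). GATA6, an endoderm factor and the one of these above background, read 6.03 and 5.79 in siTET1, 6.04 and 5.94 in siTET2, and 6.26 and 6.13 in siTET3, against 5.62 and 5.70 in siNTC. Of all genes, 34.3%, 36.2% and 36.1% passed in siTET1, siTET2 and siTET3, and of those not above background 9.35%, 9.88% and 9.7%. The part of the cell type markers in the microRNA results was not tested. Over the microRNA genes, arrays of 1 group correlated at r = 0.98 to 0.99, arrays of different depletions at 0.97 to 0.99, and depletion arrays with siNTC arrays at 0.96 to 0.98. Over all genes, arrays of different depletions correlated at 0.995 to 0.998, and depletion arrays with siNTC arrays at 0.989 to 0.991. The siTET3 pair was the least alike, with a median absolute difference of 0.147 against 0.0911 to 0.106 in the other groups.

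The signals of the microRNA genes were low and unevenly spread. Means over the 8 arrays ran between 3.48 and 10.97 with a median of 4.54, against a median of 6.71 for all genes, and only 7 microRNA genes exceeded 7. The 2 that exceeded 10 were MIR302B (10.97) and MIR302A (10.19), neighbours in the cluster that marks human pluripotent cells. MIR326 followed at 8.58, then MIR25 at 7.53, MIRLET7I and MIR186 at 7.46, MIR19B2 at 7.22 and MIR320A at 6.95. Because each gene has its own probes, this order is one of signal and not of the number of transcripts. Just above background stood MIR181B2 (5.25), MIR125A (5.24) and MIR32 (5.22), and just below it MIR330 (5.19), MIR138-2 (5.19) and MIR219A2 (5.15). On single arrays, 47 to 57 of the genes were above the line. With the 99th percentile of the olfactory receptor genes as background, 28 genes remained above it.

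**Figure D1:**
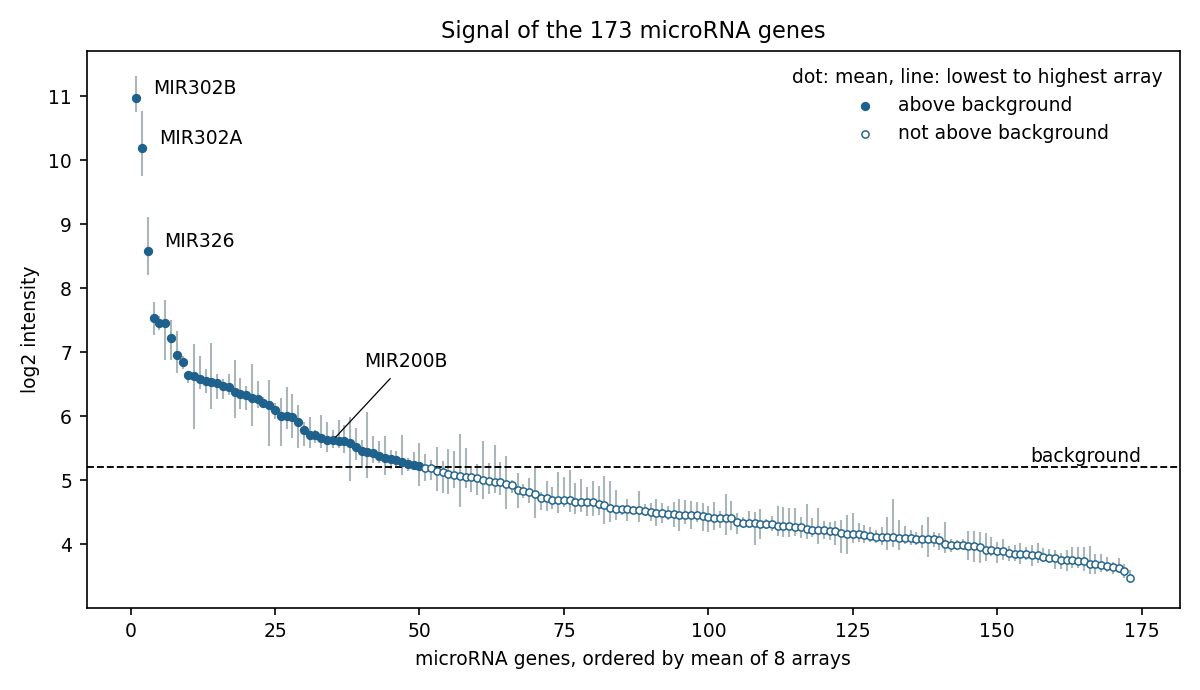
Log2 intensity (vertical axis) of the 173 microRNA genes, ordered by their mean over 8 arrays (horizontal axis); dots are means, lines run over the lowest to the highest array, filled dots are the 50 genes above the dashed background line at 5.21. MIR302B and MIR302A stand clear of the others at 10.97 and 10.19, and MIR200B lies at 5.62.

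Among the 173 microRNA genes and among the 50 above background, the shares that passed the test were below those of all genes in every comparison with siNTC. For the 123 not above background it was the reverse in siTET1, siTET2 and siTET3. There 14.6%, 16.3% and 13.8% passed, against 9.35%, 9.88% and 9.7% of all genes not above background. In siTET1, 33 of 173 passed (34.3% of all genes did), 8 of them higher (15.6% of all genes) and 25 lower (18.7%). Of the 50 above background, 15 passed (45.4% of all genes above background), 7 higher (21.9%) and 8 lower (23.5%). Quantile normalization gave 10 higher and 17 lower of the 173. The count fell to 21 without siTET1 replicate 1 (7 higher, 14 lower), to 16 without siTET1 replicate 2 (4 and 12) and to 18 without siNTC replicate 1 (7 and 11). Without siNTC replicate 2 it was 26 (5 higher, 21 lower). Above background it fell to 11 without siTET1 replicate 1 (6 higher, 5 lower), to 9 without siTET1 replicate 2 (4 and 5), to 10 without siNTC replicate 1 (7 and 3) and to 10 without siNTC replicate 2 (4 and 6), so which direction held more genes above background depended on the arrays used.

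In siTET2, 32 of the 173 microRNA genes passed (36.2% of all genes), 9 higher (14.4%) and 23 lower (21.8%). Of those above background, 12 passed (48% of all genes above background), 7 higher (20%) and 5 lower (28%). With quantile normalization the 173 genes split into 12 higher and 12 lower. Leaving out siTET2 replicate 1 left 16 calls among the 173 (7 higher, 9 lower) and 7 above background (6 and 1). Leaving out siTET2 replicate 2 left 14 (5 higher, 9 lower) and 7 above background (4 and 3), and leaving out siNTC replicate 1 left 16 (6 and 10) and 7 above background (5 and 2). Without siNTC replicate 2 the 173 genes split into 6 higher and 19 lower. In siTET3, 30 passed (36.1%), 15 higher (13.8%) and 15 lower (22.3%), and above background 13 passed (47.8%), 8 higher (18.1%) and 5 lower (29.7%). The siTET3 count was 20 without siTET3 replicate 1 (9 higher, 11 lower) and 45 without siTET3 replicate 2 (25 and 20). The even split did not hold without siNTC replicate 2, with 6 higher and 22 lower, and without siNTC replicate 1 it was 11 and 11. Above background the 8 higher and 5 lower became 5 and 4 without siTET3 replicate 1, 7 and 3 without siNTC replicate 1, and 5 and 6 without siNTC replicate 2.

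The mean of the 3 depletions differed from siNTC for 44 microRNA genes (40.7% of all genes), with 12 higher (16.5%) and 32 lower (24.2%), and for 17 of those above background (52.9%), with 10 higher (22.6%) and 7 lower (30.4%). Quantile normalization gave 15 higher and 24 lower of the 173. Without siNTC replicate 1 the 44 became 26 (9 higher, 17 lower), and the genes above background split into 8 higher and 4 lower. Without siNTC replicate 2 the 44 became 33 (5 higher, 28 lower) and the 17 became 11 (4 higher, 7 lower), so the balance above background reversed. It reversed as well without siTET2 replicate 2, where the splits were 8 higher and 30 lower, and above background 6 higher and 7 lower. Without the intensity trend, the genes above background split into 7 higher and 7 lower.

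Changes were small. A fitted difference of at least 1.5-fold was seen for 3 of the microRNA genes that passed in siTET1 (5.13% of all genes), 5 in siTET2 (6.16%) and 7 in siTET3 (5.91%). Of these, 3, 4 and 6 lay above background. The other gene in siTET2 and in siTET3 had a mean not above background, so its fitted fold is not taken as a size. In all, 53 microRNA genes passed in at least 1 depletion (49.6% of all genes), 21 of them above background (64% of all genes above background). Of these 21, MIR15A, MIR186 and MIRLET7F1 were higher in all 3 depletions (12.3% of all genes above background), MIR29B1 and MIR376C were lower in all 3 (18.5%), and MIR302A and MIR302B were higher in siTET1 and lower in siTET3 (0.902% passed in opposite directions in any pair of depletions).

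**Figure D2:**
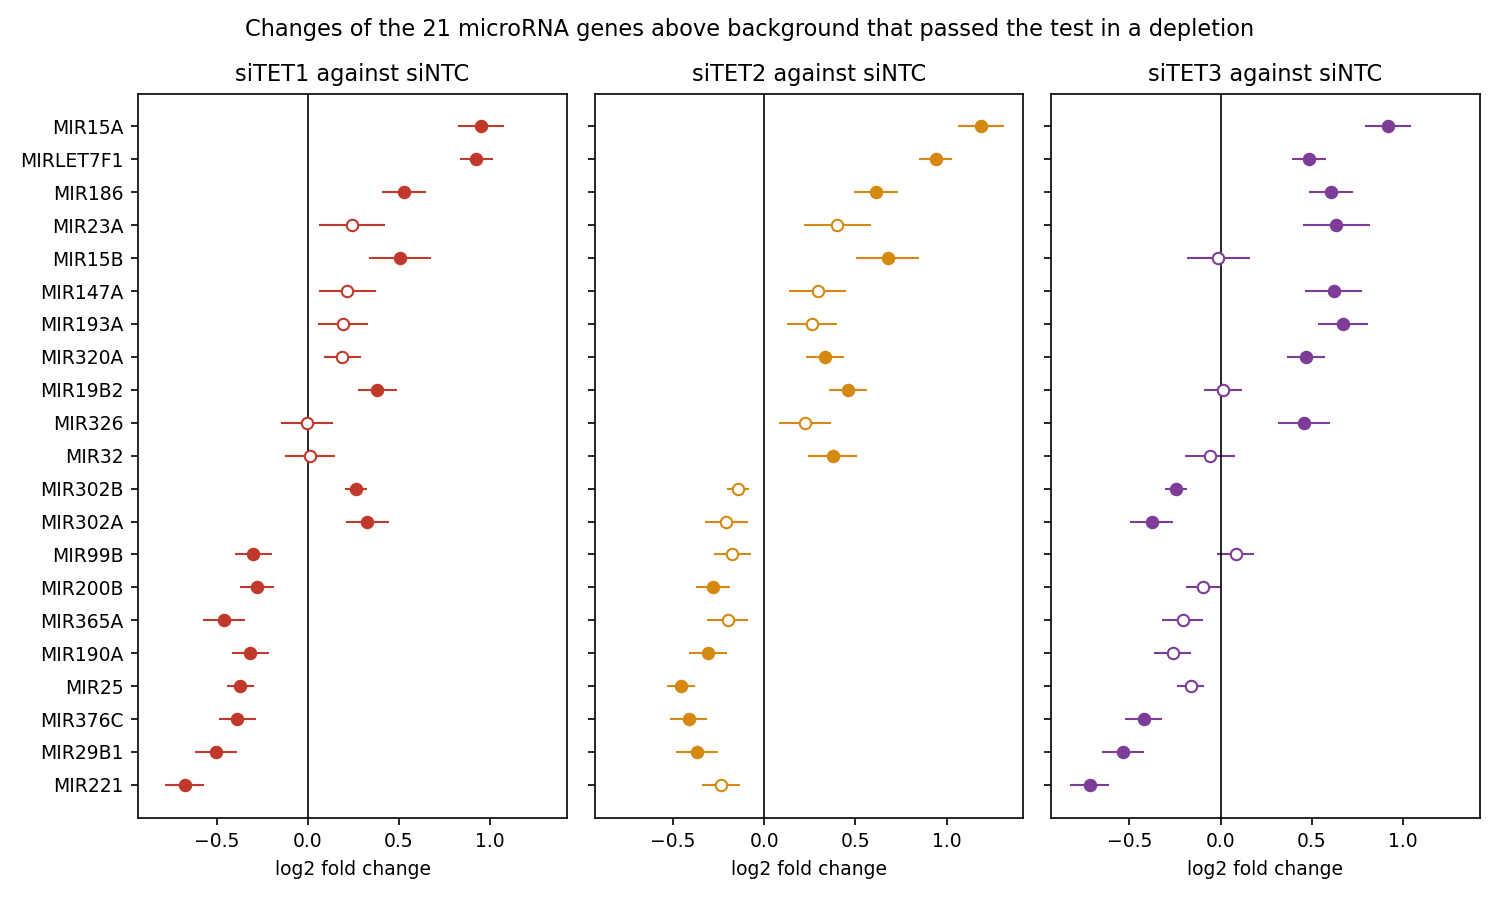
Changes relative to siNTC, as log2 fold change on the horizontal axis, of the 21 microRNA genes above background that passed the test in at least 1 depletion, one panel per depletion; bars are standard errors of the fit, filled dots have an adjusted p under 0.05. MIR15A leads at 0.95, 1.19 and 0.92, and MIR302A and MIR302B lie on opposite sides of 0 in siTET1 and siTET3.

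MIR15A, whose product restrains BCL2 and cyclins and whose locus is often lost in chronic lymphocytic leukaemia, had the largest increase among the microRNA genes that passed in each depletion. Its log2 intensity was 6.61 and 7.02 in siTET1, 6.98 and 7.13 in siTET2, and 6.85 and 6.71 in siTET3, against 5.93 and 5.80 in siNTC. Every depletion array lay above both siNTC arrays. The change was 0.95 ± 0.13 in siTET1 (1.93-fold, adjusted p = 5.95e-05), 1.19 ± 0.13 in siTET2 (2.28-fold, adjusted p = 7.65e-06) and 0.92 ± 0.13 in siTET3 (1.89-fold, adjusted p = 7.23e-05). All 3 calls held under every alternative tried.

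MIR15A lies at chr13:50049119-50049201 on the minus strand of GRCh38.p14, beside MIR16-1 at chr13:50048973-50049061, and both hairpins sit inside DLEU2, a long non-coding RNA gene. The hairpins are shown because they are neighbours with different values, with the mature strands in capitals.
MIR15A hairpin: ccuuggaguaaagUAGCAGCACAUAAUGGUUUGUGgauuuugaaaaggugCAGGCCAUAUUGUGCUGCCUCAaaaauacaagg
MIR16-1 hairpin: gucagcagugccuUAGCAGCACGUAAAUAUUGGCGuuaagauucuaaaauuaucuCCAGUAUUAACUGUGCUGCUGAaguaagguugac
MIR16-1 read 5.38 and 5.29 in siTET1, 5.17 and 5.32 in siTET2, and 5.46 and 5.23 in siTET3, against 5.47 and 5.28 in siNTC. Its groups overlapped, and its changes of -0.04, -0.13 and -0.03 did not pass the test at a signal close to background. DLEU2 was bright and moved the other way, with 10.42 and 10.01 in siTET1, 10.25 and 9.96 in siTET2, and 10.38 and 10.18 in siTET3, against 10.72 and 10.66 in siNTC. All 6 depletion arrays lay below both siNTC arrays, and the changes were -0.48, -0.59 and -0.42 (adjusted p = 0.00543, 0.00117 and 0.0122). The median change of the 24 nearest genes above background was 0.06, -0.01 and -0.12.

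Of the 5 measured genes with this seed, 4 were above background, and MIR15B was the other that changed. It read 5.65 and 5.95 in siTET1, 5.95 and 5.99 in siTET2, and 4.99 and 5.57 in siTET3, against 5.46 and 5.13 in siNTC. The siTET1 and siTET2 arrays lay above both siNTC arrays, whereas the siTET3 arrays spread across them, and 1 array of siTET3 and 1 of siNTC were below background. It rose by 0.50 ± 0.17 in siTET1 (adjusted p = 0.0367) and by 0.68 ± 0.17 in siTET2 (adjusted p = 0.00716), and its siTET3 change was -0.01. The siTET1 call was lost without the intensity trend, siTET1 replicate 2 or siNTC replicate 2, and the siTET2 call without siTET2 replicate 2 or siNTC replicate 2. Its cluster partner MIR16-2, which lies with it in SMC4 (a condensin subunit), had changes of -0.10, -0.06 and -0.15 that did not pass. MIR195, under background on all arrays, did not pass.

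The let-7 genes restrain growth genes such as RAS and accumulate as cells differentiate. Of 10 measured genes with the let-7 seed, 4 lay above background (MIRLET7I, MIRLET7D, MIRLET7F1 and MIRLET7G), and MIRLET7F1 was the one that passed in single depletions. It read 6.51 and 6.52 in siTET1, 6.57 and 6.49 in siTET2, and 6.07 and 6.08 in siTET3, against 5.64 and 5.54 in siNTC. All depletion arrays were above siNTC, with siTET3 in between. The increases were 0.92 ± 0.09 in siTET1 (1.90-fold, adjusted p = 5.15e-06), 0.94 ± 0.09 in siTET2 (1.92-fold, adjusted p = 3.86e-06) and 0.48 ± 0.09 in siTET3 (1.40-fold, adjusted p = 0.0010), kept under every alternative tried. The siTET3 level was lower than that of siTET1 by 0.44 (adjusted p = 0.00686, lost without siTET1 replicate 2) and than that of siTET2 by 0.46 (adjusted p = 0.0060, lost without siTET2 replicate 1).

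A second gene on another chromosome, MIRLET7F2, gives the same mature strand, let-7f-5p, and was under background on all 8 arrays. The hairpins are shown because their 5′ mature strands, in capitals, are identical while the rest differs, and RefSeq lists a 3′ strand in capitals for MIRLET7F1.
MIRLET7F1 hairpin: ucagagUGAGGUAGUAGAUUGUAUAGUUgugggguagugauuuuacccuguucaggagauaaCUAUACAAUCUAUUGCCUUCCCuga
MIRLET7F2 hairpin: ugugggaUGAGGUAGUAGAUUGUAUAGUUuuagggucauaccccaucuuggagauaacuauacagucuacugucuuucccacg
MIRLET7F1 is at chr9:94176347-94176433 on the plus strand and MIRLET7F2 at chrX:53557192-53557274 on the minus strand, inside the ubiquitin ligase gene HUWE1. MIRLET7F2 read 4.26 and 4.25 in siTET1, 4.38 and 4.49 in siTET2, and 4.14 and 4.34 in siTET3, against 4.79 and 4.61 in siNTC. The readings were lower than in siNTC in siTET1 (adjusted p = 0.00288) and siTET3 (adjusted p = 0.00222) and did not pass in siTET2 (adjusted p = 0.0509). A difference between readings that are both under background has no interpretable size, so none is given for such genes, and these readings are not set against those of MIRLET7F1.

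The neighbours of MIRLET7F1 did not share its rise to the same extent. MIRLET7A1, below background, read 4.35 and 4.26 in siTET1, 4.26 and 4.41 in siTET2, and 4.52 and 4.30 in siTET3, against 4.29 and 4.26 in siNTC. MIRLET7D, above background, had changes of 0.22, 0.28 and 0.18, none past the test in a single depletion, and passed for the mean of the 3 depletions at 0.23 (adjusted p = 0.0493), a call lost in 8 of 14 alternatives, among them without siNTC replicate 1 or siNTC replicate 2. MIRLET7I had changes of -0.09, -0.12 and -0.13 that did not pass. In the wider list of let-7, miR-125 and miR-99/100 genes, 16 of 18 were measured, and 1 was higher and 3 lower in siTET1, 1 higher and 3 lower in siTET2, and 2 higher and 2 lower in siTET3. Of all genes, 15.6%, 14.4% and 13.8% were higher and 18.7%, 21.8% and 22.3% lower. Most of the 16 were not above background, and of all such genes 7.99%, 7.85% and 5.73% were lower. The list's median change was -0.05, -0.03 and 0.03, against -0.03, -0.04 and -0.02 for all genes.

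**Figure D3:**
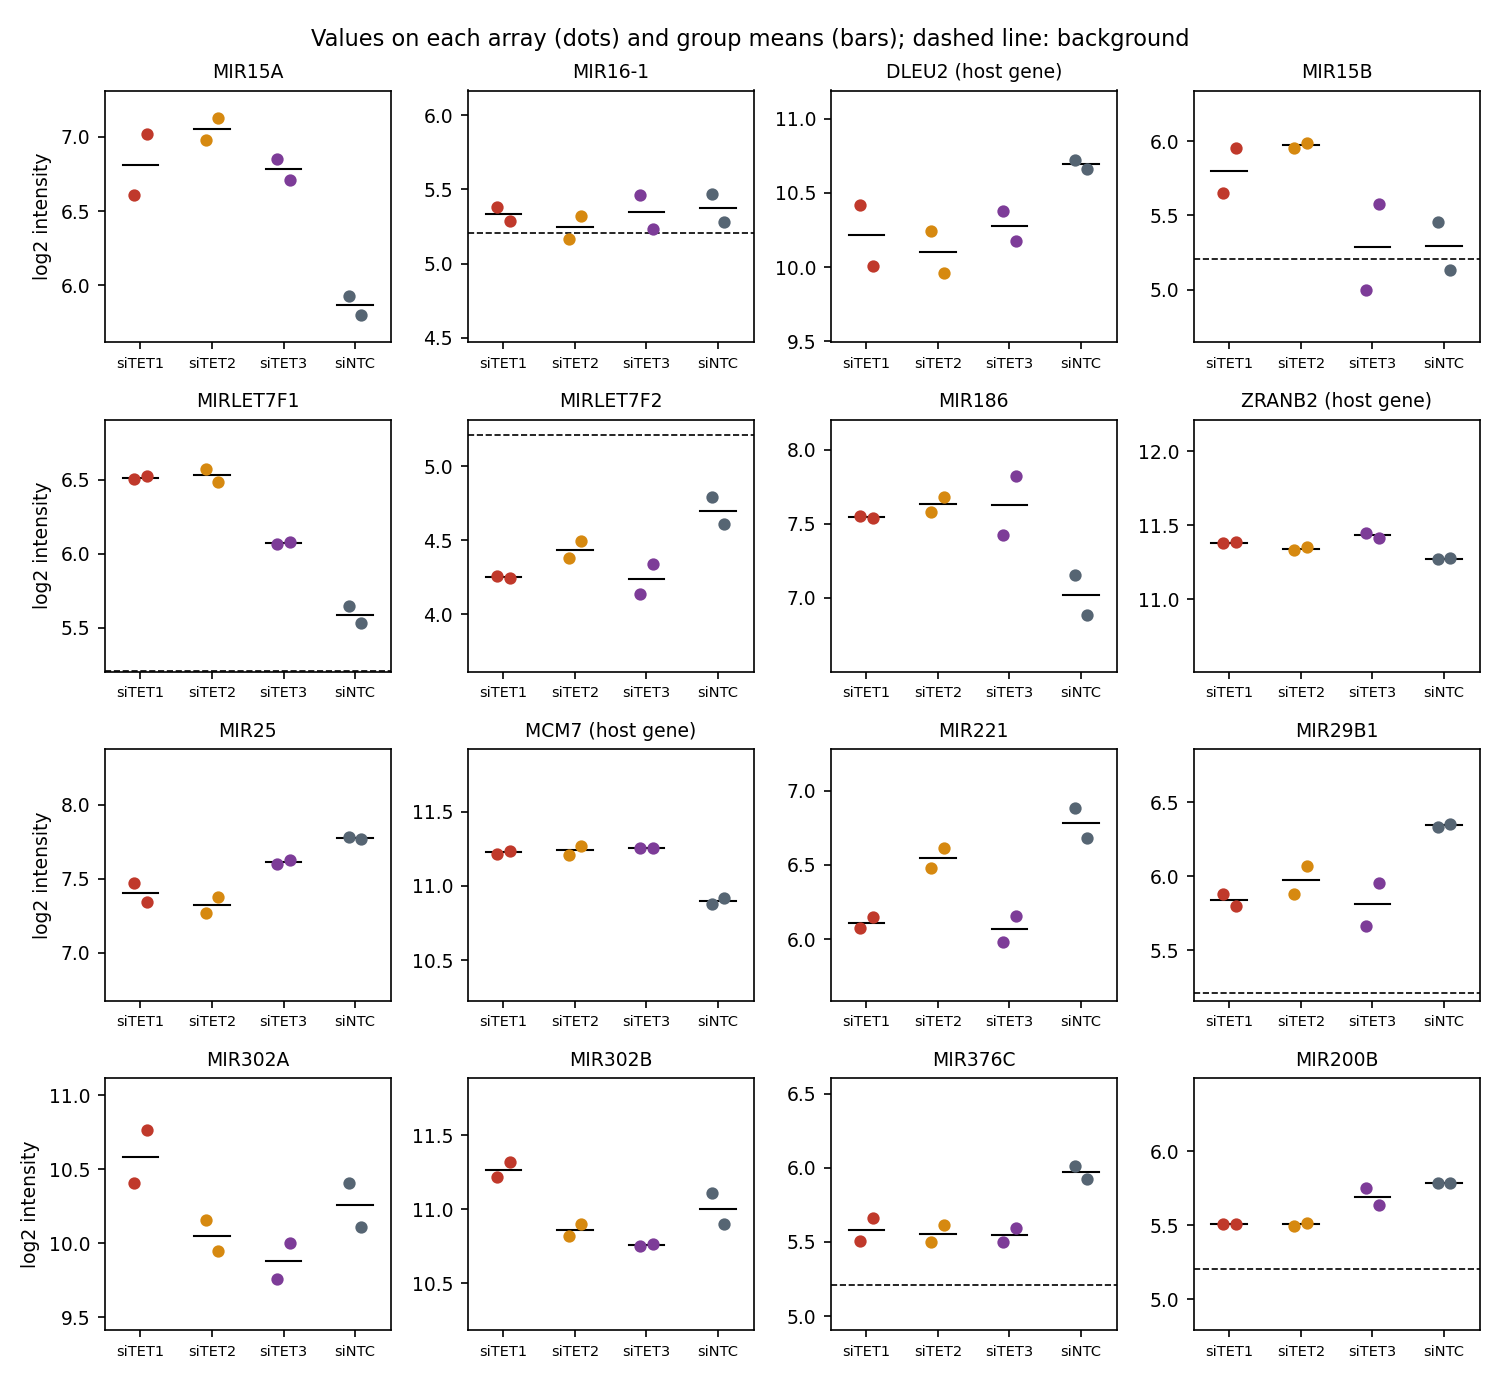
Log2 intensity on each of the 8 arrays (dots, vertical axis, each panel spanning the same range of 1.7 log2 units) and group means (bars) for 13 microRNA genes and 3 host genes, by group on the horizontal axis, with background dashed where it falls in the panel. MIR15A is above siNTC on all 6 depletion arrays while its host DLEU2 is below, MIRLET7F1 is above siNTC on all 6, the readings of MIRLET7F2 are all under background, and the means of MIR302A and MIR302B are highest in siTET1.

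MIR186 was higher in all 3 depletions and lies within the gene of an RNA-binding zinc finger protein, ZRANB2. It read 7.55 and 7.54 in siTET1, 7.58 and 7.68 in siTET2, and 7.43 and 7.82 in siTET3, against 7.15 and 6.88 in siNTC. All depletion arrays lay above both siNTC arrays. The change was 0.53 ± 0.12 in siTET1 (1.44-fold, adjusted p = 0.0036), 0.61 ± 0.12 in siTET2 (1.53-fold, adjusted p = 0.00117) and 0.61 ± 0.12 in siTET3 (1.52-fold, adjusted p = 0.00133), and every alternative kept the calls. ZRANB2 rose by 0.11 in siTET1 and by 0.16 in siTET3, and its change of 0.07 in siTET2 did not pass. The 24 nearest genes above background had median changes of 0.24, 0.06 and 0.08.

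MIR302A and MIR302B, whose products promote cell division and the pluripotent state, moved in opposite directions in siTET1 and siTET3. They are the measured members of the miR-302 cluster, at chr4:112648183-112648251 and chr4:112648485-112648557 on the minus strand. MIR302B read 11.22 and 11.32 in siTET1, 10.82 and 10.90 in siTET2, and 10.75 and 10.77 in siTET3, against 11.11 and 10.90 in siNTC. Its siTET1 arrays were above both siNTC arrays and its siTET3 arrays below both. The changes were 0.26 ± 0.06 in siTET1 (adjusted p = 0.00362) and -0.24 ± 0.06 in siTET3 (adjusted p = 0.00614), and -0.14 in siTET2, which did not pass. The siTET1 call was lost without siTET1 replicate 2, and the siTET3 call without siNTC replicate 1 or without the intensity trend.

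MIR302A read 10.40 and 10.77 in siTET1, 10.15 and 9.95 in siTET2, and 9.76 and 10.00 in siTET3, against 10.40 and 10.11 in siNTC. The lower siTET1 array fell between the siNTC arrays, to the second decimal at the level of the higher one, so these groups overlapped, and the siTET3 arrays were below siNTC. The changes were 0.33 ± 0.12 in siTET1 (adjusted p = 0.0495) and -0.38 ± 0.12 in siTET3 (adjusted p = 0.0247). The siTET1 call ended in 5 of the 11 alternatives, among them without siTET1 replicate 2 (0.15) and without siNTC replicate 2, and the siTET3 call without siTET3 replicate 1, siNTC replicate 1 or the intensity trend.

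The depletions were also compared with each other. Against siTET1, siTET3 was lower by 0.70 ± 0.12 for MIR302A (adjusted p = 0.00186) and by 0.51 ± 0.06 for MIR302B (adjusted p = 1.67e-04), both kept under every alternative. In siTET2 the levels were also under those of siTET1, by 0.53 for MIR302A (adjusted p = 0.0198) and 0.41 for MIR302B (adjusted p = 0.00185), the first lost when siTET1 replicate 2 or either siTET2 array was left out and both lost without the intensity trend. TET1 itself was lowest in siTET1 and highest in siTET3, and LIN28A, the blocker of let-7 processing, rose by 0.25 in siTET1 with changes of 0.02 and -0.02 in siTET2 and siTET3 that did not pass. Whether these values are linked was not tested.

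Other differences between depletions were few. Between siTET2 and siTET1, 3 of the 173 microRNA genes passed (6.46% of all genes), all 3 above background (9.21%): MIR302A, MIR302B and MIR221. Leaving out siTET1 replicate 2, siTET2 replicate 1 or siTET2 replicate 2 left 1 call. Between siTET3 and siTET1, 11 passed (13.8%), 7 of them above background (19.1%), with 2 calls without siTET1 replicate 2, 5 without siTET1 replicate 1 or siTET3 replicate 1, and 28 without siTET3 replicate 2. Between siTET3 and siTET2, 7 passed (12.2%), 5 of them above background (17.2%), with 1 to 2 calls when siTET2 replicate 1, siTET2 replicate 2 or siTET3 replicate 1 was left out and 23 without siTET3 replicate 2. Of the genes above background, the 7 between siTET3 and siTET1 became 2 without siTET1 replicate 2, 4 without siTET3 replicate 1 and 15 without siTET3 replicate 2, and the 5 between siTET3 and siTET2 became 1 without siTET2 replicate 1, siTET2 replicate 2 or siTET3 replicate 1 and 13 without siTET3 replicate 2. In siTET3, relative to siTET2, MIR15B was lower by 0.69 and MIR19B2 by 0.45, and MIR25 was higher by 0.29 (adjusted p = 0.0194, 0.0141 and 0.0232), and each of these calls ended when siTET2 replicate 1, siTET2 replicate 2 or siTET3 replicate 1 was left out.

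The miR-17-92 cluster and its paralogs drive proliferation and are amplified in some lymphomas. Of 15 listed genes 6 were measured and 3 were above background, and MIR25 and MIR19B2 changed in opposite directions. MIR25 read 7.47 and 7.35 in siTET1, 7.27 and 7.38 in siTET2, and 7.60 and 7.63 in siTET3, against 7.79 and 7.77 in siNTC. Its depletion arrays were all below siNTC. It fell by 0.37 ± 0.08 in siTET1 (adjusted p = 0.00175) and by 0.45 ± 0.08 in siTET2 (adjusted p = 3.27e-04), kept under every alternative, while its change of -0.16 in siTET3 did not pass (adjusted p = 0.109).

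MIR25 lies at chr7:100093560-100093643 on the minus strand, in MCM7, which encodes a subunit of the replicative helicase. MCM7 went the other way, with 11.22 and 11.23 in siTET1, 11.21 and 11.27 in siTET2, and 11.26 and 11.25 in siTET3, against 10.88 and 10.92 in siNTC. It rose by 0.33, 0.34 and 0.36 (adjusted p = 1.26e-05, 7.72e-06 and 5.45e-06). MIR106B, in the same host and under background on all arrays, did not pass. Of the other genes with the seed of miR-25, MIR92A2 had changes of 0.05, -0.01 and 0.05 that did not pass, and MIR32, at the edge of background, rose by 0.37 in siTET2 (adjusted p = 0.0478), a call lost in 7 of 11 alternatives, among them when any 1 of its 4 arrays was left out.

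MIR19B2, in the paralogous cluster on the X chromosome, read 7.49 and 7.30 in siTET1, 7.51 and 7.43 in siTET2, and 6.93 and 7.11 in siTET3, against 7.14 and 6.88 in siNTC. The siTET1 and siTET2 arrays were above siNTC and the siTET3 arrays among them. It rose by 0.38 ± 0.11 in siTET1 (adjusted p = 0.0124), lost without siTET1 replicate 1 or siNTC replicate 2, and by 0.46 ± 0.11 in siTET2 (adjusted p = 0.00369), which every alternative kept. Its siTET3 change was 0.01.

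MIR221, which restrains the cell cycle inhibitor p27, had the largest decrease among the genes that passed in siTET1 and siTET3. It read 6.07 and 6.15 in siTET1, 6.48 and 6.61 in siTET2, and 5.98 and 6.16 in siTET3, against 6.89 and 6.68 in siNTC. All depletion arrays lay below siNTC, siTET2 least so. It fell by 0.67 ± 0.10 in siTET1 (1.60-fold, adjusted p = 2.22e-04) and by 0.72 ± 0.10 in siTET3 (1.64-fold, adjusted p = 1.25e-04), kept under every alternative, and its change of -0.24 in siTET2 did not pass (adjusted p = 0.0982). The siTET2 level was above that of siTET1 by 0.44 (adjusted p = 0.0277), a call lost without any 1 of these 4 arrays, and siTET3 was below siTET2 by 0.48 (adjusted p = 0.00943, lost without siTET2 replicate 2 or siTET3 replicate 1). MIR222, its neighbour with the same seed, was under background on all arrays and did not pass.

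MIR29B1 belongs to a family known to repress both DNA methyltransferases and TET transcripts. It read 5.88 and 5.80 in siTET1, 5.88 and 6.07 in siTET2, and 5.66 and 5.96 in siTET3, against 6.33 and 6.35 in siNTC. All depletion arrays were below siNTC. It fell by 0.50 ± 0.11 in siTET1 (adjusted p = 0.0039), by 0.37 ± 0.11 in siTET2 (adjusted p = 0.0233) and by 0.53 ± 0.11 in siTET3 (adjusted p = 0.00245). The siTET2 call was lost without siTET2 replicate 1 or either siNTC array. MIR29A, in the same cluster, had changes of -0.25, -0.08 and -0.22 that did not pass. Among 8 measured of 11 microRNA genes reported elsewhere to repress TET transcripts, none was higher, and 2, 2 and 1 were lower in siTET1, siTET2 and siTET3 (MIR29B1 each time, and MIR26A2, below background, in siTET1 and siTET2). Of all genes, 18.7%, 21.8% and 22.3% were lower. Most of the 8 were not above background, and of all such genes 7.99%, 7.85% and 5.73% were lower. The list's median change was -0.13, -0.12 and -0.08, against -0.03, -0.04 and -0.02 for all genes. For the 123 microRNA genes not above background it was -0.09, -0.08 and -0.02. As most of the list lay there too, its median is not taken as the size of a fall.

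MIR376C, in the imprinted microRNA cluster of chromosome 14, read 5.51 and 5.66 in siTET1, 5.50 and 5.62 in siTET2, and 5.50 and 5.59 in siTET3, against 6.01 and 5.93 in siNTC. The depletions were alike and all below siNTC. It fell by 0.39 ± 0.10 (adjusted p = 0.00938), by 0.41 ± 0.10 (adjusted p = 0.00588) and by 0.42 ± 0.10 (adjusted p = 0.00517) in siTET1, siTET2 and siTET3. The siTET1 call was lost without siTET1 replicate 1 or siNTC replicate 1, and the siTET2 call without siTET2 replicate 1. Of 54 listed genes of this cluster, 16 were measured and 2 were above background, MIR376C and MIR494. MIR494 had changes of -0.13, -0.14 and 0.19 that did not pass. In the cluster, 3 genes were lower and none higher in siTET1, and 4 lower and none higher in siTET2. In siTET3, 2 were lower and 2 higher. Of all genes, 18.7%, 21.8% and 22.3% were lower and 15.6%, 14.4% and 13.8% higher. Most of the 16 were not above background, and of all such genes 7.99%, 7.85% and 5.73% were lower.

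MIR200B, of the family that represses ZEB factors and keeps epithelial cells epithelial, read 5.51 and 5.51 in siTET1, 5.50 and 5.52 in siTET2, and 5.75 and 5.64 in siTET3, against 5.79 and 5.79 in siNTC. The depletion arrays were below siNTC, closest in siTET3. It fell by 0.28 ± 0.09 in siTET1 (1.21-fold, adjusted p = 0.0343) and by 0.28 ± 0.09 in siTET2 (adjusted p = 0.0329), and its change of -0.09 in siTET3 did not pass. Leaving out any 1 of the 4 arrays of a comparison took the adjusted p past the threshold, up to 0.123 in siTET1 and 0.146 in siTET2, with the change between -0.27 and -0.29. The gene is at chr1:1167104-1167198 on the plus strand. The other measured family members were all below background, at means of 3.80 for MIR200A, 4.54 for MIR429, 4.14 for MIR200C and 4.17 for MIR141, and none passed in any depletion.

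In siTET3, several microRNA genes rose that did not pass in siTET1. MIR193A read 6.82 and 6.52 in siTET3, against 6.17 and 5.84 in siNTC, and rose by 0.67 ± 0.14 (1.59-fold, adjusted p = 0.00175), kept under every alternative. Its levels were 6.35 and 6.05 in siTET1 and 6.26 and 6.27 in siTET2, overlapping siNTC in siTET1, and siTET3 was above siTET1 by 0.48 (adjusted p = 0.036), a call lost without siTET3 replicate 1 or siTET1 replicate 2. MIR320A, whose product does not need DROSHA, read 7.33 and 7.01 in siTET3 and 6.99 and 7.08 in siTET2, against 6.73 and 6.68 in siNTC. It rose by 0.47 ± 0.10 in siTET3 (adjusted p = 0.00285), kept under every alternative, and by 0.33 ± 0.10 in siTET2 (adjusted p = 0.0217), lost when any 1 of the 4 arrays was left out.

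For MIR23A, MIR147A and MIR326 the siTET3 call depended on its first array. MIR23A read 6.06 and 5.46 in siTET3, against 5.22 and 5.03 in siNTC, and rose by 0.64 ± 0.18 (adjusted p = 0.0152). MIR147A read 7.15 and 6.58 in siTET3, against 6.39 and 6.11 in siNTC, and rose by 0.62 ± 0.16 (adjusted p = 0.00682). MIR326 read 9.11 and 8.64 in siTET3, against 8.44 and 8.39 in siNTC, and rose by 0.46 ± 0.14 (adjusted p = 0.0228). All 3 were higher in siTET3 than in siNTC on both arrays, and all 3 calls were lost without siTET3 replicate 1, with changes of 0.33, 0.34 and 0.22. They were lost without siNTC replicate 2 as well, and that of MIR326 also without siNTC replicate 1. MIR27A, next to MIR23A and with a mean below background, read 4.90 and 5.37 in siTET3, against 4.76 and 4.56 in siNTC (adjusted p = 0.0132). Its siTET3 call was lost without replicate 2, the one array above background, or without siNTC replicate 2, and not without siTET3 replicate 1. Between the siTET3 arrays, replicate 1 was higher for 95 of the 173 genes, by a median of 0.15 in the third of hairpins richest in G and C against 0.0013 in the third poorest in them. Replicate 1 was higher for 115 of the 173 genes in siNTC, 90 in siTET1 and 76 in siTET2. In siNTC the median difference was 0.024 in the third richest in G and C and 0.0958 in the poorest. The part of these differences in the siTET3 calls was not tested.

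The remaining decreases were smaller. MIR190A read 6.43 and 6.55 in siTET1 and 6.50 and 6.50 in siTET2, against 6.94 and 6.67 in siNTC, and fell by 0.31 ± 0.10 in both (adjusted p = 0.0304 and 0.0322). Leaving out either depletion array or siNTC replicate 1 ended the call in each. It lies in TLN2, the gene of the cytoskeletal protein talin 2, which read 6.70 and 6.91 in siTET1, 6.62 and 6.50 in siTET2, and 6.20 and 6.04 in siTET3, against 7.19 and 7.24 in siNTC. TLN2 fell by 0.40, 0.65 and 1.09, whereas MIR190A did not pass in siTET3, where TLN2 fell most. The 24 nearest genes above background also had negative median changes of -0.29, -0.35 and -0.34. MIR99B fell by 0.30 in siTET1 (adjusted p = 0.0356), a call lost without any 1 of the 4 arrays. MIR365A read 5.09 and 5.12 in siTET1, both under background, against 5.69 and 5.43 in siNTC, so it was at least 1.28-fold lower (adjusted p = 0.00637), a call lost without siNTC replicate 1.

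The 29 genes above background that passed in no single depletion had means between 5.24 and 7.46. They were MIRLET7I, MIR197, MIR92A2, MIR210, MIR339, MIR30E, MIR211, MIRLET7D, MIR16-2, MIR139, MIR149, MIR194-2, MIR196A1, MIR107, MIRLET7G, MIR503, MIR187, MIR29A, MIR181B1, MIR375, MIR185, MIR150, MIR138-1, MIR191, MIR16-1, MIR423, MIR494, MIR181B2 and MIR125A. Among them MIR210, the classical hypoxia microRNA gene, had changes of 0.06, 0.15 and -0.01. The 7 measured genes responsive to p53 or hypoxia had no call in any depletion, but only 2 of them were above background (MIR210 and MIR194-2). Of all genes, 34.3%, 36.2% and 36.1% passed in siTET1, siTET2 and siTET3, and of those not above background 9.35%, 9.88% and 9.7%. MIR197, at 6.84, had changes of 0.09, -0.03 and 0.07.

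Of the 123 genes not above background, 18 passed in siTET1 (14.6%), 20 in siTET2 (16.3%) and 17 in siTET3 (13.8%). Of all genes not above background, 9.35%, 9.88% and 9.7% did. Those lower numbered 17 in siTET1 (13.8%), 18 in siTET2 (14.6%) and 10 in siTET3 (8.13%). Among all genes not above background, 7.99%, 7.85% and 5.73% were lower. MIR135A2, a brain-enriched microRNA gene, read 4.57 and 4.65 in siTET1, 4.32 and 4.43 in siTET2, and 4.39 and 4.55 in siTET3, against 5.06 and 4.97 in siNTC. All of these readings are under background, and its calls were kept under every alternative tried. MIR219A2, known from oligodendrocytes, was above background on both siNTC arrays (5.52 and 5.47) and on no depletion array, and was at least 1.22-fold lower in each, the siTET1 call being lost without either siTET1 array or siNTC replicate 1. MIR10A, from the HOXB locus, and MIR144 and MIR451A, the red blood cell pair, read lower than in siNTC in all 3 depletions, under background throughout. The siTET1 call of MIR10A was lost in 4 of 10 alternatives, quantile normalization, either siTET1 array and siNTC replicate 2. That of MIR144 was lost in 5 of 10 in siTET1 and in siTET2, with quantile normalization or without any 1 of the 4 arrays, and in siTET3 without siTET3 replicate 1. MIR451A lost its siTET2 call with quantile normalization or without siTET2 replicate 1, its siTET3 call without siTET3 replicate 1, and its call in all 3 without siNTC replicate 1. The dim olfactory receptor genes also read a little lower in siTET1 and siTET2: their array medians were 4.30 and 4.25 in siTET1, 4.27 and 4.31 in siTET2, and 4.40 and 4.31 in siTET3, against 4.39 and 4.35 in siNTC. The part of this shift in the low-signal calls was not tested.

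Lists of microRNA genes from other tissues had little signal. None of 4 measured muscle and heart genes and none of 2 measured genes of the placental C19MC cluster was above background, nor was the liver gene MIR122. Of these, MIR133B passed as higher in siTET3 (13.8% of all genes were higher) and MIR122 as lower in siTET1, and no other passed in a single depletion. Of 15 neural genes 1 was above background and none passed in a depletion. Of 13 blood and endothelial genes 4 were above background, and none was higher while 4, 3 and 4 were lower in siTET1, siTET2 and siTET3, MIR221 being the one of these above background. Of 4 measured HOX-locus genes 1 was above background, and none was higher while 1, 2 and 1 were lower. Of all genes, 18.7%, 21.8% and 22.3% were lower. Among all genes not above background, as most of the blood and HOX lists were, 7.99%, 7.85% and 5.73% were lower.

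By position, 26 groups of microRNA genes within 10 kb of each other on 1 strand held 67 of the genes. In 12 of these groups some members were above background and others not, in 10 none was, and 8 held at least 2 above it. Host genes were measured for 56 pairs of a microRNA gene and the gene around it on the same strand, 21 of them with the microRNA gene above background. Among these 21, both partners passed in the same direction in 3, 2 and 1 pairs in siTET1, siTET2 and siTET3. They passed in opposite directions in 2, 2 and 1. The host alone passed in 8, 5 and 10, the microRNA gene alone in 1, 2 and 0, and neither in 7, 10 and 9. Among all genes above background, 45.4%, 48% and 47.8% passed in these depletions. MIR15A with DLEU2 and MIR25 with MCM7 made up the opposite pairs. Across the 21 pairs the changes correlated at r = -0.20, -0.17 and -0.05, a description over pairs that share the same arrays and, for some, a host.

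**Figure D4:**
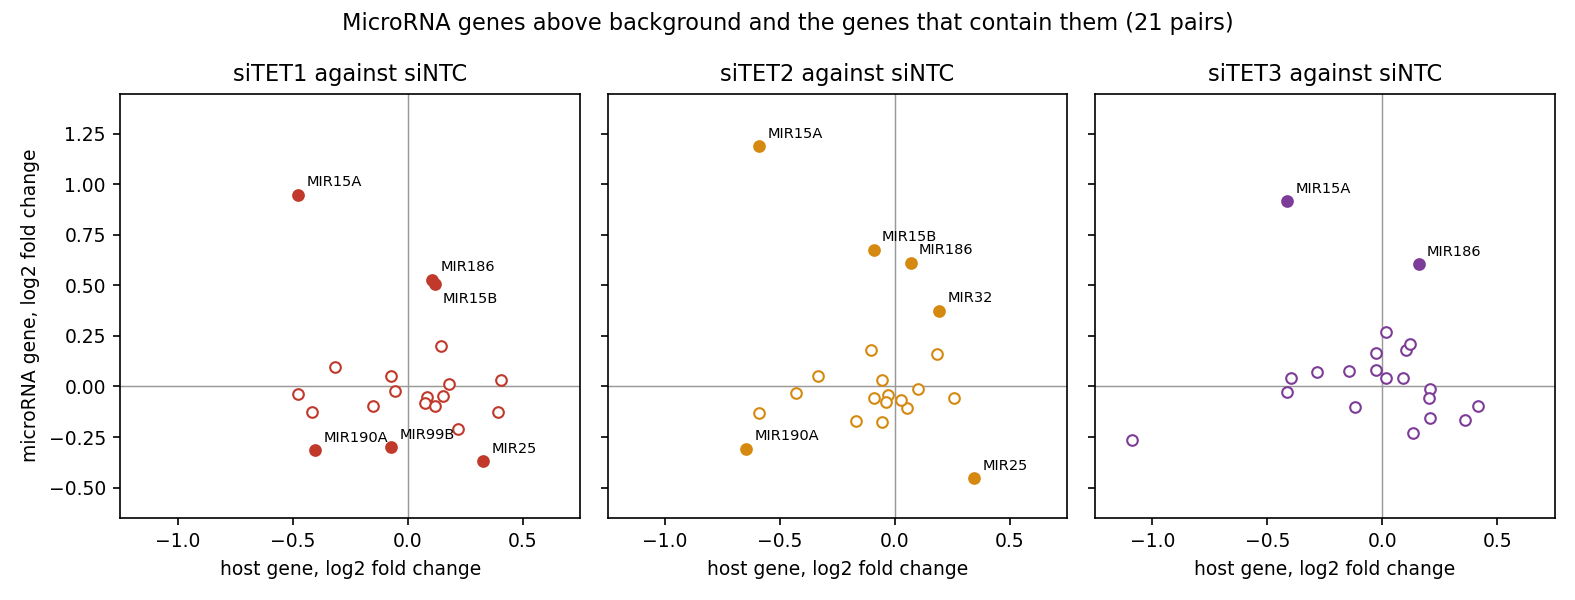
Log2 fold change against siNTC of 21 microRNA genes above background (vertical axis) and of the gene that contains each on the same strand (horizontal axis), one panel per depletion; filled and named dots are microRNA genes that passed the test. MIR15A is higher where DLEU2 is lower, by 0.95, 1.19 and 0.92 against -0.48, -0.59 and -0.42, and most other microRNA genes lie near 0 over a wide range of host changes.

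The genes that make and use microRNAs were well measured. Of 24 listed proteins 23 were measured, all above background, and 9 were higher and 4 lower in siTET1, 8 higher and 5 lower in siTET2, and 5 higher and 7 lower in siTET3. Of all genes above background, 45.4%, 48% and 47.8% passed, with 21.9%, 20% and 18.1% higher and 23.5%, 28% and 29.7% lower. DICER1, the hairpin cutter, rose by 0.14, 0.19 and 0.26, AGO4, an Argonaute, by 0.47, 0.67 and 0.33, and TUT4, which adds uridines to let-7 hairpins, by 0.17, 0.18 and 0.21. PRKRA, a DICER1 partner, fell by 0.45, 0.60 and 0.55, and KHSRP, which aids let-7 processing, by 0.22, 0.34 and 0.45. XPO5, the exporter of hairpins, fell by 0.25 and DROSHA by 0.13 in siTET3, and neither passed in siTET1 or siTET2. The median change of the list was 0.03, 0.06 and 0.01, against -0.03, -0.04 and -0.02 for all genes.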

How the data were processed

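RNA of NCCIT cells was measured on Affymetrix Human Gene 1.0 ST arrays, 2 per group, from 250 ng of total RNA per the labels. The authors normalized the arrays and deposited log2 intensities, running between 3.13 and 14.75 over 33297 probe clusters. Partek is named in the submitters' processing notes, and for its version, background correction and summarization nothing is given in the sources used here. The number of arrays limits the precision. Clusters with exactly 1 gene symbol (19460) were used, 1 per gene by highest mean (18417 genes), and 32 clusters with a microRNA symbol among several were left out. A linear model of the 4 groups was fitted to all genes and 8 arrays with limma 3.58.1 in R 4.3.3 (with a trend in intensity; degrees of freedom were 4 residual and 8.55 prior), with two-sided moderated tests and Benjamini-Hochberg adjustment over all genes of a comparison. A gene passed at an adjusted p under 0.05. Where a group was under background on both arrays, the fold is a bound: each of its arrays at the background level. The fit was first tested on simulated data. Named genes were the measured miR-200 family, the 8 largest changes each way among genes above background with arrays apart, the 5 largest each way between depletions, the 8 highest means, the 3 on each side of background, and members of the lists. Seed and cluster partners of these genes (such as MIR16-1, MIR222 and MIRLET7F2), MIR27A, MIR135A2, MIR144, MIR451A, MIR26A2 and the remaining genes above background were named after their values were seen. The members and lists were chosen with earlier results of these data known. Hosts, positions and sequences came from RefSeq (GRCh38.p14). Alternatives were quantile normalization, the 4 arrays alone, no trend, genes above background only, other cluster choices, a replicate block, other background percentiles, a 1.5-fold minimum and each array left out. Figures used matplotlib 3.10.9 in Python 3.11.15.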

Additional observations from a re-analysis of the deposited data

Results flagged for a closer look

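MIR302A and MIR302B passed the test in opposite directions in siTET1 and siTET3, and the difference between these depletions passed as well. It was -0.704 for MIR302A and -0.5074 for MIR302B on the log2 scale (siTET3 minus siTET1, limma, adjusted p = 0.00186 and 1.67e-04). All 4 arrays show it for both genes, since each siTET3 array lay below each siTET1 array.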

How the results depend on the processing

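No named gene's change that passed the test turned its direction under an alternative, but the balance of higher and lower calls did. Without siNTC replicate 2, the 15 higher and 15 lower in siTET3 became 6 and 22, and the 10 higher and 7 lower above background for the mean of the 3 depletions became 4 and 7. Without siNTC replicate 1, the 7 higher and 8 lower above background in siTET1 became 7 and 3. Calls among the 173 microRNA genes with a fitted change of at least 1.5-fold numbered 3 in siTET1, 5 in siTET2 and 7 in siTET3. Of these, 3, 4 and 6 were above background. Such calls numbered 2 for the mean of the 3 depletions against siNTC. Between depletions there were 0 for siTET2 against siTET1, 1 for siTET3 against siTET1 and 1 for siTET3 against siTET2. For the mean and between depletions the share of all genes with such a call was not computed, so nothing is read from these counts. With the fit on genes above background only, the counts were 15, 13, 15 and 18 of 50 against siNTC. Without the intensity trend, they were 0 between siTET2 and siTET1, 7 between siTET3 and siTET1 and 4 between siTET3 and siTET2, and with the 4 arrays of a comparison alone 5 between siTET2 and siTET1 and 3 between siTET3 and siTET1.

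Leaving out 1 array at a time gave 16 to 26 calls in siTET1, 14 to 25 in siTET2, 20 to 45 in siTET3, 26 to 47 for the mean, 1 to 2 between siTET2 and siTET1, 2 to 28 between siTET3 and siTET1, and 1 to 23 between siTET3 and siTET2. The number of genes above background was 28 with the 99th percentile of the olfactory receptor genes and 66 with the 90th, and 49 to 53 with 1 array left out. Over the named microRNA genes, 169 values lost and 66 gained a call under an alternative. The 4390 others did not change state, and they include values with no call in either setting, so they do not count calls that held. The low signal of most of these genes limits what can be seen.

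The labels do not say whether replicate numbers pair the arrays. Over genes above background, deviations of same-numbered arrays correlated at 0.25 for siTET1 with siTET3 and at -0.05 to 0.05 for the other pairs of groups. With the replicate number as a block, the counts were 33 in siTET1, 31 in siTET2, 30 in siTET3, 44 for the mean, 3 between siTET2 and siTET1, 13 between siTET3 and siTET1 and 10 between siTET3 and siTET2.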
